A study of Mus musculus with 3 samples.

Results

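The genes described here are 44 mouse genes for cytokines, chemokines and their receptors, 22 for secreted ligands and 22 for receptors. They were named by gene symbol, in a list drawn up with earlier results of these data known. Predicted N6-methyladenosine (m6A) sites were assigned to a gene when they lay inside its span on the same strand, with genes and transcripts from GENCODE M21 on the mouse genome GRCm38. Of 19301 sites in the list, 146 lay in the spans of these genes, and 21 of the 44 genes held at least 1 site. The other 23 genes held none and are accounted for below.

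The sites came from RAW264.7, an adherent mouse macrophage cell line, cultured without treatment. Poly(A)+ RNA of 3 biological replicates was crosslinked to an m6A antibody and sequenced by miCLIP2, in which the points where reverse transcription stops at crosslinked RNA place the mark at single-nucleotide resolution. The calls of the replicates were combined into 1 list, which carries for each site a prediction score of the machine learning model m6Aboost between 0.5 and 1. There is 1 condition and 1 genotype, the organism label names mouse although the series text names the line as human, and all 19301 sites fell on an A of the mouse genome.

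m6A is written onto nascent mRNA by the METTL3-METTL14 methyltransferase complex, mainly at the sequence DRACH (D is A, G or T, R is A or G, and H is A, C or T), and is read by YTH proteins that direct the RNA towards decay or translation. Cytokines and chemokines are small secreted proteins by which macrophages recruit and instruct other cells. Many of their mRNAs are short-lived and carry AU-rich elements in the 3′UTR, whereas the receptors that receive these signals are membrane proteins encoded by longer mRNAs.

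The score describes how firmly a site was called and is not a measure of the fraction of methylated copies. The list holds no read counts and no expression values, so the depth behind a single site is unknown, and a gene without a site may be unexpressed, thinly covered or unmethylated, which cannot be told apart here. For the same reason the macrophage label could not be checked against marker expression. The model uses signal strength relative to other peaks of the gene and C-to-T changes in the reads. It also uses the surrounding sequence and the transcript region. The shares of sites by motif and region given below therefore depend in part on the model. No test across replicates was possible, and all values are counts with 95% Wilson intervals, which cover counting error only and treat sites of 1 transcript as independent.

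The sequence around the highest-scoring site of the members with most sites is printed first, to show the base context of the firmest call in each of these genes, with Csf1r left out. Each line gives 21 bases of GRCm38, 5′ to 3′ on the strand of the gene and centred on the listed A, with the 5 bases around that A in capitals.

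Cx3cr1, 3′UTR, score 0.984, chr9:120050175-120050195, minus strand: tggatcagGAACTgttaccct

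Il10ra, 3′UTR, score 0.929, chr9:45254254-45254274, minus strand: ccaaatacAGACTgtgtgacg

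Il17ra, CDS, score 0.864, chr6:120481468-120481488, plus strand: ccactcatGGACAgatttgag

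Tgfbr2, 3′UTR, score 0.931, chr9:116090265-116090285, minus strand: aaaaccaaGGACTtgctccct

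Il6ra, 3′UTR, score 0.951, chr3:89870261-89870281, minus strand: tttttagaGAACTgttgcctg

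Tnfrsf11a, CDS, score 0.827, chr1:105827359-105827379, plus strand: tttcaccgGGACTgaaagcac

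Tnfrsf1a, 3′UTR, score 0.925, chr6:125362028-125362048, plus strand: aacttcaaGGACCattctgct

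Il6st, CDS, score 0.836, chr13:112504403-112504423, plus strand: cttgccacAGACTgtaagaca

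Vegfa, 3′UTR of an alternative transcript, score 0.932, chr17:46018384-46018404, minus strand: actgctgtGGACTtgtgttgg

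Tgfb1, CDS, score 0.862, chr7:25687945-25687965, plus strand: cagccgcgGGACTctccacct

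All 10 windows have a DRACH pentamer at their centre. Outside the pentamer the windows differ. The bases just before it were AT-rich at the Il6ra site and GC-rich at the Tgfb1 site in the first exon.

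Across all 44 genes, 47.7% (33.8 to 62.1) had a listed site, against 23.1% of the 21951 protein-coding genes of the annotation. Members with 10 or more sites numbered 7 of 44, or 15.9% (7.93 to 29.4), against 1.71% of all protein-coding genes. These 7 were all receptors and held 100 of the 146 sites. The members were chosen with earlier results of these data known, and of 101 further genes of the same pathways 17.8% held a site. How far the shares of the members follow that choice or expression in this line was not tested.

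Sites were unevenly divided between ligands and receptors. The ligands held 21 sites in 8 of 22 genes and the receptors 125 sites in 13 of 22 genes. Ligand transcripts were shorter, with a median of 1333 nt and 30.5 DRACH A per transcript against 3765 nt and 80.5 for receptors, beside 2545 nt and 51 over all protein-coding genes. Per length, ligands held 0.432 exonic sites per kb of spliced transcript and receptors 1.29. Counted per DRACH A, which sets aside how many motifs a transcript offers, 15 of 850 were listed in ligands, 1.76% (1.07 to 2.89), and 110 of 1835 in receptors, 5.99% (4.998 to 7.18). Over the 21907 other protein-coding genes, also counted with and without a site, the share was 1.22% (1.199 to 1.235). The intervals of ligands and receptors did not overlap, but neither accounts for expression, and a test of the difference was not made.

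**Figure D1:**
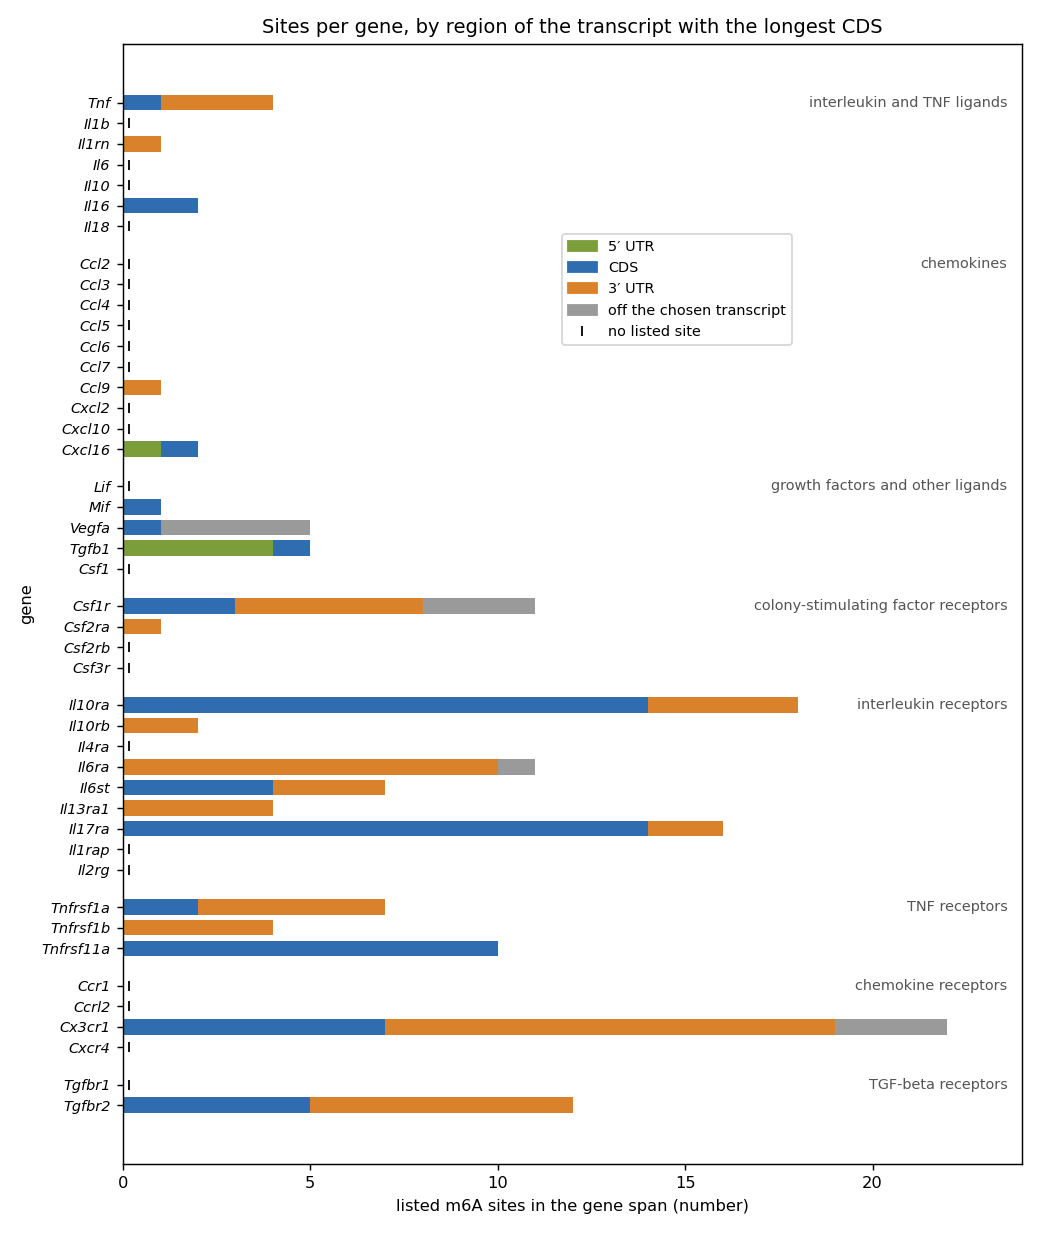
Number of listed m6A sites in the span of each of the 44 genes, ordered by role, with bars split by region on the transcript with the longest CDS. Genes without a listed site have a black tick, and the 7 genes with 10 or more sites are all receptors.

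Among the interleukin and TNF ligands, 3 of 7 genes held 7 sites. Tnf, the proinflammatory cytokine tumour necrosis factor, held 4 of them on a transcript of 1639 nt, all in its last exon. One lay in the CDS 44 nt before the stop codon with a score of 0.751, and the others lay in the 3′UTR 188, 200 and 515 nt after it with scores of 0.803, 0.873 and 0.774, where distances run along the spliced transcript from the first base of the stop codon. Of the 35 DRACH A in Tnf, 11.4% were listed, while the median over other genes with a site was 4.17% (quartiles 2.13 and 8). The Tnf windows are shown because this short-lived mRNA combines m6A calls with AU-rich elements. They were chosen after the values were seen, and are given in the order of the transcript with capitals as above.

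Tnf, CDS, chr17:35200181-35200201, minus strand: aagtacttAGACTttgcggag

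Tnf, 3′UTR, 188 nt after the stop codon, chr17:35199949-35199969, minus strand: agatgctgGGACAgtgacctg

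Tnf, 3′UTR, 200 nt after the stop codon, chr17:35199937-35199957, minus strand: agtgacctGGACTgtgggcct

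Tnf, 3′UTR, 515 nt after the stop codon, chr17:35199622-35199642, minus strand: gtcctggaGGACCcagtgtgg

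The Tnf 3′UTR of 764 nt held 8 copies of ATTTA between 423 and 633 nt after the stop codon, and 5 copies of the nonamer TTATTTATT, which contains ATTTA. The m6A calls at 188 and 200 nt lay 235 and 223 nt before the nearest ATTTA, whereas the call at 515 nt lay 27 nt after one. The calls thus stood both before and within the stretch that holds the AU-rich elements.

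The other interleukin ligands held few or no sites. Il16, which encodes a precursor of a T cell chemoattractant, held 2 sites in the CDS of exon 14, 1402 and 1442 nt before the stop codon, with scores of 0.826 and 0.622. Il1rn, the antagonist of the IL-1 receptor, held 1 site in the 3′UTR, 90 nt after the stop codon, at the non-DRACH pentamer GTACA with a score of 0.62. Il1b, Il6, Il10 and Il18 held none, although their transcripts offered between 29 and 31 DRACH A each.

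Chemokines, which attract leukocytes, were the group with the smallest share of listed motifs, 3 of 266 DRACH A or 1.13% (0.384 to 3.26), an interval that includes the 1.22% of all other protein-coding genes. Ccl9 and Cxcl16 held a site, 2 of 10 chemokine genes, beside 23.1% of all protein-coding genes. Ccl9 held 1 site in the 3′UTR, 554 nt after the stop codon, at GGACT with a score of 0.692. Cxcl16, a transmembrane chemokine that also acts as a scavenger receptor, held 1 site in the 5′UTR with a score of 0.529 and 1 in the CDS, 47 nt before the stop codon, with a score of 0.708. Ccl2, Ccl3, Ccl4, Ccl5, Ccl6, Ccl7, Cxcl2 and Cxcl10 held no site. Their transcripts were short and offered between 7 and 31 DRACH A.

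Of the 5 growth factors and other ligands, Tgfb1 and Vegfa held 5 sites each, Mif 1, and Lif and Csf1 none. Tgfb1 encodes the immunosuppressive cytokine TGF-beta 1. Its 5 sites all lay in the first exon of 1222 nt, 4 in the 5′UTR, 1753, 1717, 1644 and 1482 nt before the stop codon with scores of 0.792, 0.61, 0.643 and 0.636, and 1 in the CDS, 1084 nt before it with a score of 0.862. Tgfb1 therefore held 4 of the 5 5′UTR sites found in the whole set, and 5 of the 22 DRACH A of this exon were listed.

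Vegfa, which encodes the angiogenic factor VEGF-A, showed how far a region depends on the transcript chosen. On the transcript with the longest CDS only 1 of its 5 sites was exonic, in the CDS 1021 nt before the stop codon with the low score of 0.516. The other 4 lay in the 3′UTR of an alternative coding transcript with a last exon of 1887 nt, 456, 466, 513 and 657 nt after its stop codon, and scored 0.772, 0.932, 0.719 and 0.797. Mif, a constitutively stored inhibitor of macrophage migration, held 1 CDS site 38 nt before the stop codon at GAACG with a score of 0.541. Csf1, the macrophage colony-stimulating factor, held no site on a transcript with 108 DRACH A, and Lif none with 75.

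AU-rich elements were denser in the 3′UTRs of the ligands than in those of the receptors. ATTTA occurred in 17 of 22 ligand genes at 3.81 per kb of 3′UTR and in 16 of 22 receptor genes at 1.19 per kb, beside 1.93 per kb over all protein-coding genes, 58.1% of which held the motif. Interleukin and TNF ligands reached 5.16 per kb and chemokines 4.30 per kb, while growth factors and other ligands had 2.05 per kb. The nonamer TTATTTATT occurred in Tnf 5 times, Cxcl2 4 times, Lif 2 times and Il10ra 3 times, beside 6.52% of all protein-coding genes. Both motifs were counted on the sense strand of the transcript with the longest CDS, and a match is not evidence of protein binding. For Vegfa that transcript had a 3′UTR of only 315 nt without ATTTA, so the densities depend on the transcript chosen.

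Of the 64 member sites in a 3′UTR, 7 had a whole ATTTA within 50 nt, or 10.9% (5.40 to 20.9), against 4.74% (4.30 to 5.22) of 8233 other 3′UTR sites with a full window. Within 100 nt the count was 10, or 15.6% (8.71 to 26.4), an interval that includes the 11.5% of other sites. None of the 64 had the nonamer within 50 nt, beside 0.0607% of the 8233 other sites. Within 100 nt it was 1 of 64, or 1.56% (0.276 to 8.33), against 0.272% of other sites. Il13ra1 held 2 of the 7, and Tnf, Csf1r, Il6st, Tgfbr2 and Cx3cr1 held 1 each. The closest pair was in Csf1r, where ATTTA began 4 nt after a listed A with a score of 0.887.

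The interleukin receptors were the group with most sites, 58 in 6 of 9 genes, beside 23.1% of all protein-coding genes with a site. Of their DRACH A 54 of 793 were listed, 6.81% (5.26 to 8.78), against 1.22% over all other protein-coding genes. Il10ra encodes the ligand-binding chain of the receptor for the anti-inflammatory cytokine IL-10. All of its 18 sites lay in the last exon, exon 7 of 2605 nt, and 28 genes held more exonic sites in the whole list. Of the 80 DRACH A of its transcript 16 were listed, or 20%, and the density of 5.15 exonic sites per kb was the highest of the 44 genes.

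In Il10ra, 14 sites lay in the CDS between 794 and 89 nt before the stop codon, in the part encoding the cytoplasmic tail. Their scores ranged from 0.53 to 0.867. The 4 sites in the 3′UTR lay 243, 326, 1268 and 1297 nt after the stop codon with scores of 0.639, 0.605, 0.929 and 0.792. The firmest call of the gene was thus in the distal 3′UTR, and the pair at 1268 and 1297 nt stood apart from the rest by more than 900 nt. The 3 copies of ATTTA in this 3′UTR began 96 nt or more after the last site.

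Il17ra, the receptor chain shared by several IL-17 cytokines, had the same arrangement. All of its 16 sites lay in exon 13, the last, of 6577 nt, and 14 were in the CDS, between 1308 and 115 nt before the stop codon with scores from 0.586 to 0.864. The 2 sites in the 3′UTR were 193 and 199 nt after the stop codon with scores of 0.695 and 0.667. Although the 3′UTR extended for 5075 nt, no site was listed beyond 199 nt. Of its 152 DRACH A, 10.5% were listed.

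Il6ra, the ligand-binding chain of the IL-6 receptor, had the opposite arrangement, with 10 of 11 sites in the 3′UTR and none in the CDS. The sites were spread between 371 and 1466 nt after the stop codon with scores from 0.588 to 0.951, and 3 of them, at 609, 766 and 892 nt, scored 0.89, 0.901 and 0.951. The remaining site, with a score of 0.7, lay in a longer 3′UTR of another transcript, 3450 nt after its stop codon. Il6st, which encodes gp130, the signalling chain shared by the IL-6 family, held 7 sites in its last exon of 6382 nt. The 4 in the CDS lay 305, 217, 106 and 30 nt before the stop codon and scored between 0.795 and 0.836, and the 3 in the 3′UTR lay 110, 346 and 1097 nt after it and scored 0.582, 0.738 and 0.563. In Il6st the CDS scores were therefore all above the 3′UTR scores, and 4.4% of 159 DRACH A were listed.

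Il13ra1, a chain of the IL-13 receptor, held 4 sites in the 3′UTR at 95, 150, 655 and 700 nt with scores of 0.906, 0.894, 0.94 and 0.83. Its median of 0.9 was the highest of the members with several sites. Il10rb, the accessory chain of the IL-10 receptor, held 2 sites in the 3′UTR with scores of 0.671 and 0.906. Il4ra, Il1rap and Il2rg, the shared gamma chain, held no site, with 100, 88 and 24 DRACH A.

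**Figure D2:**
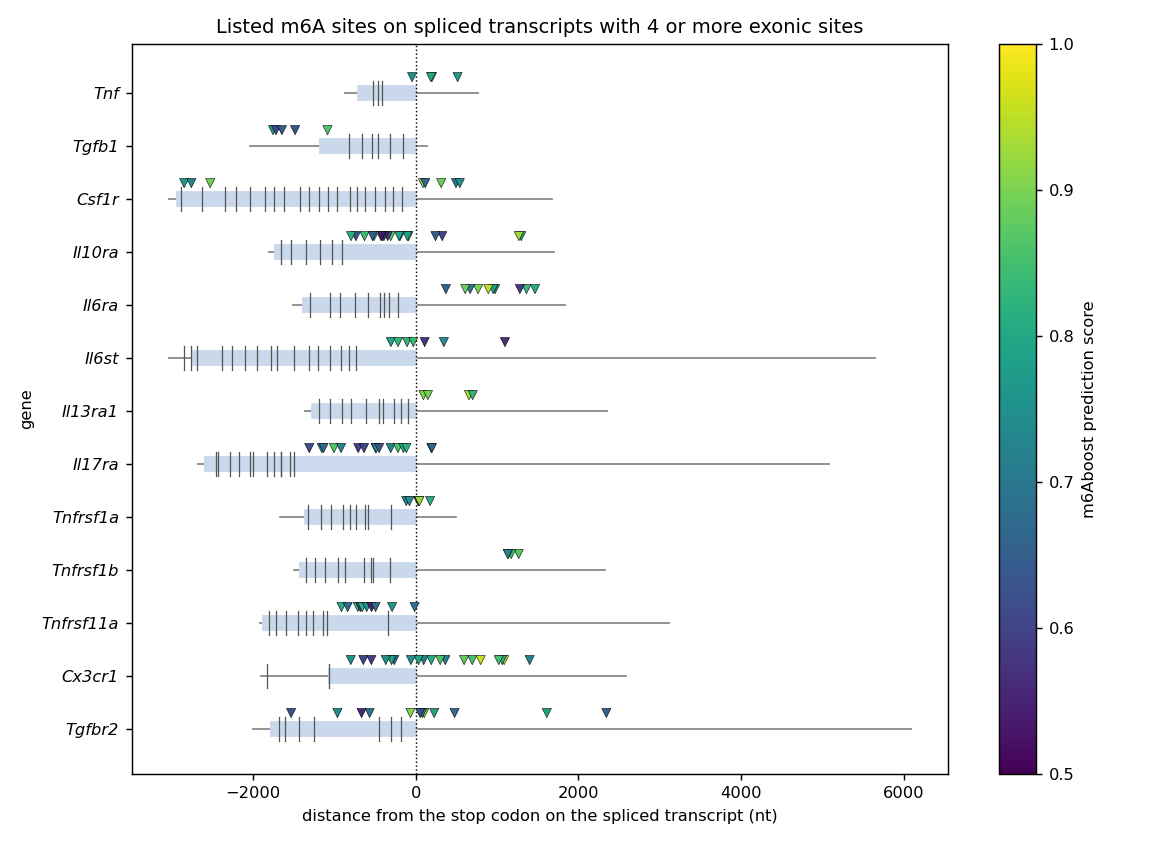
Listed m6A sites (triangles, coloured by prediction score) on the spliced transcripts of the 13 genes with 4 or more exonic sites, against the distance from the stop codon in nt. Pale boxes are the CDS, thin lines the UTRs and vertical ticks the exon junctions, and the sites of Il10ra, Il17ra and Il6st all lie to the right of the last tick.

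All 3 TNF receptor genes held sites, 21 together, beside 23.1% of all protein-coding genes with a site. Of their DRACH A 18 of 215 were listed, 8.37% (5.36 to 12.8), against 4.65% over other genes with a site and 1.22% over all other protein-coding genes. Tnfrsf11a encodes RANK, the receptor through which RANKL drives osteoclast differentiation. Its 10 sites all lay in the CDS, and 8 of them in exon 9, an internal exon of 745 nt, in which 7 of 16 DRACH A were listed, or 43.8%. These 8 sites lay 912, 836, 711, 680, 657, 602, 542 and 493 nt before the stop codon and scored 0.802, 0.669, 0.827, 0.603, 0.817, 0.745, 0.544 and 0.672. Tnfrsf11a was thus the member with most sites in an internal exon, and its 3′UTR of 3115 nt held none. The last 2 sites, in exon 10, lay 290 and 13 nt before the stop codon and scored 0.764 and 0.691.

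Tnfrsf1a, the main signalling receptor for TNF, held 7 sites in a last exon of 798 nt, where 6 of 10 DRACH A were listed. Its sites lay 116 and 77 nt before the stop codon with scores of 0.715 and 0.747, and 31, 36, 37, 46 and 177 nt after it with scores of 0.875, 0.54, 0.898, 0.925 and 0.812. The window of 26 bases that follows is shown because it holds 4 listed A within 16 nt, with those A in capitals. It was chosen after the values were seen.

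Tnfrsf1a, 3′UTR, chr6:125362018-125362043, plus strand: gagggActtgAActtcaaggAccatt

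The adjacent pair at 36 and 37 nt combined a score of 0.54 at the non-DRACH pentamer TGAAC with a score of 0.898 at GAACT. The first was the only member site whose A was not followed by C. Tnfrsf1b, the second TNF receptor, held 4 sites within 136 nt of the 3′UTR, between 1131 and 1266 nt after the stop codon, with scores of 0.727, 0.925, 0.847 and 0.869. Both receptors for TNF, like Tnf itself, therefore held listed sites in the 3′UTR.

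Cx3cr1 was the only chemokine receptor with a site and the member with most sites. It encodes the receptor for fractalkine, by which monocytes and microglia are known. Its span held 22 sites, but 3 of these, with scores of 0.535, 0.554 and 0.668, lay in introns of other Cx3cr1 transcripts and in the CDS of the overlapping genes Gorasp1 and Csrnp1. The 19 remaining sites were all in exon 3, the last, of 3661 nt, and 18 genes in the whole list held more exonic sites. They took 19 of 93 DRACH A on the transcript, or 20.4%.

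In Cx3cr1, the 7 CDS sites lay 798, 644, 545, 367, 297, 263 and 59 nt before the stop codon with scores of 0.752, 0.606, 0.59, 0.752, 0.784, 0.662 and 0.748. The 12 sites in the 3′UTR lay between 34 and 1400 nt after it with scores from 0.713 to 0.984. Of the 12 scores in the 3′UTR, 9 were above the highest CDS score of 0.784. The 2 highest scores of all 146 sites, 0.984 and 0.956, were those 1087 and 798 nt after the stop codon. Ccr1, Ccrl2 and Cxcr4 held no site, with 67, 44 and 35 DRACH A.

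The receptors for TGF-beta differed from each other. Tgfbr2, the chain that binds the ligand, held 12 sites over 3 exons, of which 5 were coding and 7 lay beyond the stop codon. Its CDS sites lay 1531, 962, 665, 566 and 64 nt before the stop codon with scores of 0.621, 0.747, 0.557, 0.687 and 0.905. Those in the 3′UTR lay 55, 81, 105, 227, 478, 1611 and 2343 nt after it with scores of 0.621, 0.731, 0.931, 0.789, 0.681, 0.792 and 0.652. The firmest calls, 0.905 and 0.931, both lay within 200 nt of the stop codon. Tgfbr1, the chain that Tgfbr2 phosphorylates, held no site on a transcript with 107 DRACH A.

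Of the 4 colony-stimulating factor receptors, Csf1r and Csf2ra held sites. Csf1r, the receptor that macrophages need to survive, held 11. The 3 in the CDS lay in exons 2 and 3 of 21, 2845, 2757 and 2525 nt before the stop codon, with scores of 0.765, 0.729 and 0.892. The 5 in the 3′UTR lay 89, 117, 313, 495 and 542 nt after it with scores of 0.93, 0.667, 0.887, 0.689 and 0.75. Csf1r thus held sites at both ends of a long coding transcript with none between. The last 3 sites, with scores of 0.612, 0.774 and 0.527, lay in the first exon of a noncoding transcript of the gene. Csf2ra, the alpha chain of the GM-CSF receptor, held 1 site in the 3′UTR at GTACT with a score of 0.673, and Csf2rb and Csf3r held none, with 100 and 74 DRACH A.

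The 23 members without a site offered 1086 DRACH A in all, a median of 31 per transcript. Among them were long receptor transcripts such as Csf2rb, Il4ra and Tgfbr1 as well as the short chemokines. In the plot of listed against available DRACH A these genes lie on the baseline along most of its length.

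**Figure D3:**
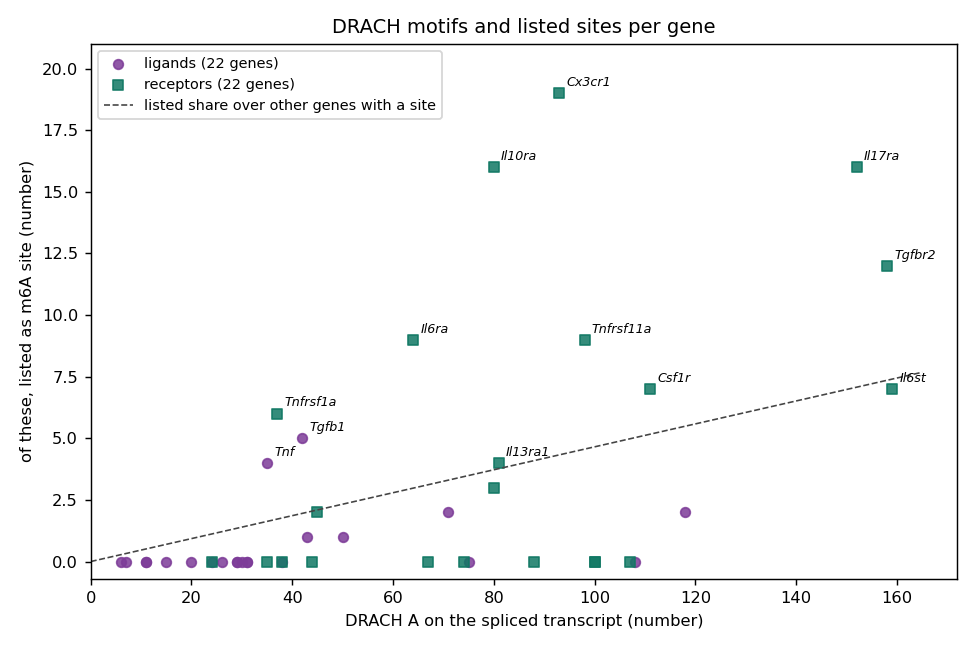
DRACH A listed as m6A site against all DRACH A of the spliced transcript, 1 point per gene, for 22 ligands (circles) and 22 receptors (squares). The dashed line is the listed share over other genes with a site (4.65%), and Cx3cr1 and Il10ra lie farthest above it.

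Over the 21 members with a site, 7.82% (6.60 to 9.24) of 1599 DRACH A were listed, against 4.65% (4.59 to 4.72) over 4903 other genes with a site. The share was 9.20% (7.69 to 11.0) in the 13 receptors and 3.72% (2.27 to 6.05) in the 8 ligands. By region, the receptors with a site had 12.1% of their CDS DRACH A and 7.77% of their 3′UTR DRACH A listed, while the other genes had 4.56% and 5.02%. Over all 44 members, including those without a site, the share was 4.66% (3.92 to 5.52), to be read beside the 1.22% of all other protein-coding genes.

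By region, 66 of the 146 sites lay in the CDS, 45.2% (37.4 to 53.3), against 51.2% of 19034 sites in other protein-coding genes, and 64 in the 3′UTR, 43.8% (36.0 to 51.9), against 43.4%. Another 5 lay in the 5′UTR and 11 outside the chosen transcript. None of the 146 lay in an intron of the chosen transcript, which allows a share of up to 2.05% at 3 counts or 2.56% by the Wilson interval, against 1.47% of other sites.

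Of 135 exonic sites, 36 lay within 200 nt of the stop codon, 26.7% (19.9 to 34.7), against 32.4% of other sites. Of the DRACH A on the same transcripts, 12.0% in members and 11.7% in other genes lay within that distance. The stop codon region thus held a larger share of sites than of motifs in both, while the members' interval included the share of the other sites.

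**Figure D4:**
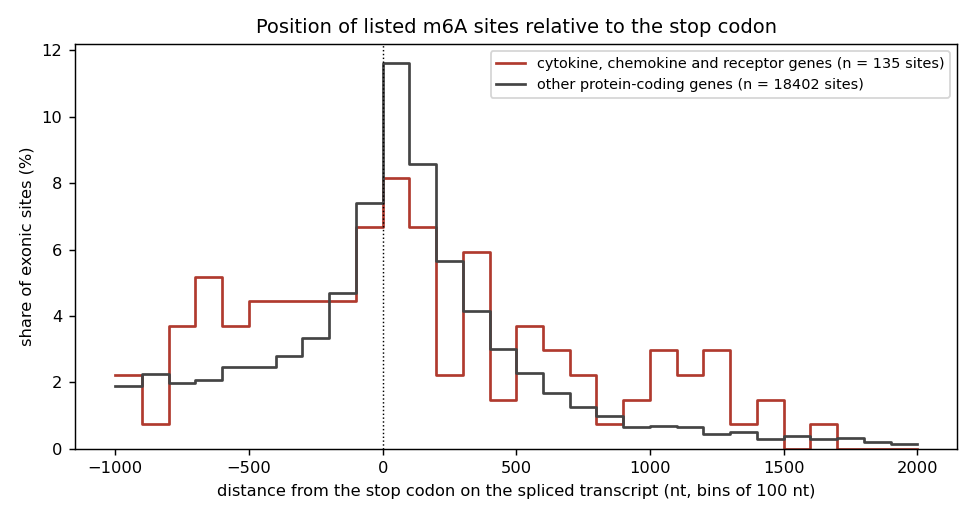
Share of exonic sites in bins of 100 nt against distance from the stop codon in nt, for the 44 genes (135 sites) and for other protein-coding genes (18402 sites). The bin just after the stop codon is the highest in both, with 8.15% of member sites and 11.6% of other sites, and each member bin rests on 11 sites or fewer.

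Sites of the members lay mostly in last exons. Of 135 exonic sites, 110 were in the last exon, 81.5% (74.1 to 87.1), against 68.4% of other sites, while the last exon held 63.4% of the members' DRACH A and 49.8% of those in other genes. Without Cx3cr1 and Il10ra, the 2 genes with most sites, the share was 74.5% (65.0 to 82.1), an interval that includes the share of the other sites. The sites outside the last exon belonged to Tnfrsf11a with 8, Tgfb1 with 5, Tgfbr2 with 4, Csf1r with 3, Il16 and Cxcl16 with 2 each and Vegfa with 1.

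Long exons held nearly all sites, with 130 of 135 in exons of 400 nt or more, 96.3% (91.6 to 98.4), against 89.8% of other sites. Without Cx3cr1 and Il10ra the share was 94.9% (88.6 to 97.8), an interval that includes that of the other sites. Such exons held 72.9% of the members' DRACH A and 60.7% of those in other genes. Correspondingly, 6 sites lay within 100 nt of an exon junction, 4.44% (2.05 to 9.36), against 12.8% of other sites, and without Cx3cr1 and Il10ra the share was 6.12% (2.84 to 12.7). Of the DRACH A, 30.0% lay that close in members and 41.8% in other genes. The sites near a junction included 1 of Cxcl16, 8 nt from it, and 1 of Mif, 26 nt from it.

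Sites were often close together. Another listed site lay within 100 nt on the same transcript for 101 of 135 sites, 74.8% (66.9 to 81.4), against 59.9% of other sites, and for 68.4% (58.6 to 76.7) without Cx3cr1 and Il10ra. In receptors the count was 94 of 118 and in ligands 7 of 17. Neighbouring calls share a transcript, so they are not to be read as independent observations.

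By motif, 136 of 146 sites were at DRACH, 93.2% (87.9 to 96.2), against 92.0% of other sites. AGACT was the most frequent pentamer with 25 sites or 17.1% (11.9 to 24.1), against 12.2% of other sites. GGACT, the most frequent pentamer of the other sites with 19.4%, was found at 19 member sites or 13.0% (8.49 to 19.4). GGACA was found at 20 sites, 13.7% against 13.2%, and GAACT at 19, 13.0% against 13.1%.

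The 10 sites outside DRACH had a median score of 0.659, against 0.607 for such sites in other genes. GTACT occurred in the 3′UTRs of Csf1r, 495 nt after the stop codon with a score of 0.689, of Csf2ra, at 341 nt with 0.673, and of Il6ra, at 669 nt with 0.704. Il10ra held a GGACG site 344 nt before the stop codon with a score of 0.581 and a TGACG site 530 nt before it with 0.646. The others were the sites of Il1rn, Mif, Tnfrsf1a, Tnfrsf1b and Tnfrsf11a named here. The 4 with the highest scores in genes other than Csf1r are shown as the firmest calls outside the motif, again with the pentamer in capitals. They depart from the motif at a single base, either at the base before the A or at the base after AC. The remaining sites outside DRACH did the same, except TGAAC in Tnfrsf1a, which departs at the base after the A.

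Tnfrsf11a, CDS, score 0.802, chr1:105827158-105827178, plus strand: agattctaGGACGttcacact

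Tnfrsf1b, 3′UTR, score 0.727, chr4:145214648-145214668, minus strand: gaatcaagATACTggacactt

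Il6ra, 3′UTR, score 0.704, chr3:89870484-89870504, minus strand: tcctcatgGTACTtgcgggag

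Csf2ra, 3′UTR, score 0.673, chr19:61224655-61224675, minus strand: aaaaatcaGTACTcgtggcca

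The Tnfrsf1b window also holds the GGACA of the neighbouring DRACH site, 5 nt downstream, which was listed with a score of 0.925.

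The scores of the members lay close to those of the other sites. Their median was 0.75 (0.719 to 0.78, binomial interval), against 0.734, with 0.746 against 0.7 in the CDS and 0.796 against 0.786 in the 3′UTR. The 5 sites in the 5′UTR had a median of 0.636, against 0.619. Ligands had a median of 0.719 and receptors of 0.75. Of the 146 sites, 14 scored 0.9 or more, 9.59% (5.80 to 15.5), against 8.76% of other sites.

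**Figure D5:**
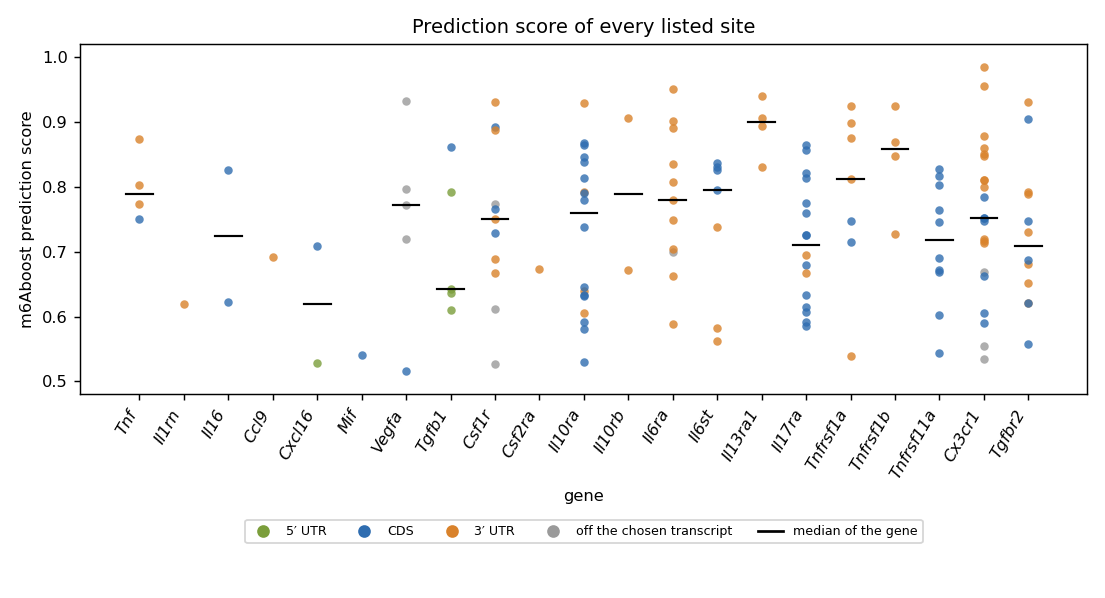
m6Aboost prediction score of each of the 146 sites, 1 column per gene with a site, coloured by region, with a bar at the median of genes with more than 1 site. Scores spread from 0.516 in Vegfa to 0.984 in Cx3cr1.

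Of 101 further genes of the same pathways, 18 held a site, or 17.8%, beside 23.1% of all protein-coding genes. They comprised 4 of 40 other ligands, 10 of 50 other receptors and 4 of 11 genes of the JAK kinases and STAT transcription factors that relay cytokine signals. The other ligands with most sites were Pdgfb with 8, Tnfsf9 with 7 and Spp1 with 6. Among other receptors, Ifnar2 held 11 and Ifnar1 7, so both chains of the type I interferon receptor held listed sites, and Ltbr, the lymphotoxin beta receptor, held 7. Stat6, which acts downstream of the IL-4 receptor, held 8 sites with a median score of 0.871, although Il4ra itself held none.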

How the data were processed

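miCLIP2 libraries of 3 replicates of untreated RAW264.7 cells were combined by the authors into 1 list. Tools named in the submitters' processing notes were STAR 2.7.3a, SAMtools 1.9, UMI-tools 1.0.0 and bedtools 2.27.1. According to the methods, uniquely mapped reads were deduplicated, peaks were called by PureCLIP in each replicate and kept when present in at least 2 replicates, and peaks at A were classified by m6Aboost. The deposited values are prediction scores, of which the authors kept those above 0.5. The list holds no counts or coverage, so depth per site is unknown.

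Sites were placed on the GENCODE M21 transcript with the longest CDS of each gene on GRCm38. The methods used another release of that annotation on the same build. Pentamers, DRACH A and ATTTA were read from the genome and the spliced transcripts, and distances were counted from the first base of the stop codon. Placement was tested on 500 transcripts with planted positions, all of which were recovered. Sites in other protein-coding genes, placed on transcripts in the same way, served as comparison. Where such a site lay in several genes, a gene in which it was exonic was preferred. A site in the span of a member always stayed with the member.

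Every member was reported by its number of sites, with positions and scores for those with 4 or more sites (ranges where many lay in 1 region), and sequence windows for the highest-scoring site of the 10 members with most sites and for the 4 highest-scoring non-DRACH sites, Csf1r left out of both. Other pathway genes with 5 or more sites were named. The members and lists were chosen with earlier results of these data known. Score thresholds, transcripts, windows, motifs and collapsed neighbouring calls were varied. Python 3.11.15, NumPy 2.4.6, SciPy 1.17.1, pysam 0.24.0 and matplotlib 3.10.9 were used.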

Additional observations from a re-analysis of the deposited data

How the results depend on the processing

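Raising the minimum score to 0.7 left 93 sites, 12 in ligands and 81 in receptors, with 96.8% at DRACH, a median score of 0.811 and 3.13% of DRACH A listed. At a minimum of 0.9 there were 14 sites in 10 genes, 1 in ligands and 13 in receptors, with 7.14% in the CDS, 85.7% in the 3′UTR, 38.5% within 200 nt of the stop codon, 100% in the last exon, 100% at DRACH, a median score of 0.93 and 0.484% of DRACH A listed, and 9 other pathway genes kept a site. Fewer sites and higher scores follow from the threshold itself, whereas the cause of the shift from CDS to 3′UTR was not tested. The share near the stop codon was 14.8% within 100 nt and 43% within 400 nt, the motif share 80.8% for RRACH and 99.3% for A followed by C, and the share of 3′UTR sites near the nonamer TTATTTATT 0%. In all, 47 of 70 alternatives kept shares and medians within their intervals and counts within 1.5 times, among them all with another transcript, with calls within 5 nt collapsed or with overlapping genes left out, which gave 143 sites. Settings without Cx3cr1 and Il10ra, or with any transcript of a gene, were chosen after seeing the data. No paired analysis was possible because the replicates were deposited as 1 list, and for the same reason no replicate could be left out.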
